A study of Mus musculus with 6 samples.

Results

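The genes described here are the 10 that encode the muscle acetylcholine receptor and the core of the agrin pathway of the neuromuscular junction: Chrna1, Chrnb1, Chrnd, Chrng, Chrne, Musk, Rapsn, Lrp4, Dok7 and Agrn. They were chosen by name, out of 21951 protein-coding genes in the annotation, and every peak overlapping one of their exons was taken. The peaks came from RISC immunoprecipitations (RISC-IP), in which RNA bound to Ago2, the core protein of the RNA-induced silencing complex, is pulled down with an antibody and sequenced. Of the 107307 peaks in 5 libraries, 46 overlapped an exon of a member, and they merged into 31 intervals, of 41363 merged from all peaks.

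The muscle acetylcholine receptor is a pentamer of 2 alpha subunits (Chrna1) with a beta (Chrnb1), a delta (Chrnd) and either a gamma (Chrng) or an epsilon (Chrne) subunit. The gamma subunit belongs to the fetal receptor of developing muscle, and the epsilon subunit replaces it in adult muscle at the innervated synapse. Agrin (Agrn) binds LRP4, which activates the muscle-specific kinase MuSK, and with the adaptor DOK7 this leads to clustering of receptors by the scaffold protein rapsyn (Rapsn).

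All libraries came from primary mouse satellite cells (MSC), the resident precursors of muscle fibres, differentiated in a low-serum medium (DM). After 30 h in DM the myocytes received 10 nM of duplex RNA, by the sample labels (the study's methods give another concentration), and stayed in DM for a further 16 h. Control-IPs received a duplex against GFP, which mouse cells lack, and miR-222-IPs received miR-222 duplex. Experiment 1 holds control-IPs 1 and 2 and miR-222-IP 1, and experiment 2 holds control-IPs 3 and 4 and miR-222-IP 2. Each experiment thus has a single miR-222-IP, and no source used here says whether the control-IPs of an experiment came from separate cultures, so that p-values measure only the spread between these libraries, which may be technical. The labels call the cells both myocytes and myotubes, and no nerve was part of the culture.

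The data are peak lists, in which each peak carries a score, the −log10 p of the peak caller, listed from 20 upward. Control-IPs 1, 2 and 4 have 10579, 20000 and 17892 peaks, and miR-222-IPs 1 and 2 have 21074 and 37762. The lists give no read depth and the study's methods give an average over samples, so depth per library is unknown, and a score mixes enrichment with depth. Without an input library, the level of an RNA and its binding to Ago2 cannot be told apart, nor can fewer cells expressing a gene be told apart from less RNA per cell. Control-IP 3 stands apart: 2771 of its 3619 peaks are wider than 5000 bp and its list covers 10 of 21 chromosomes, so its peaks are given separately. Muscle markers were present in the lists. Of 8 such genes 6, 7 and 6 had an exonic peak in control-IPs 1, 2 and 4, and 7 and 8 in miR-222-IPs 1 and 2. Markers of fibroblasts were near 0, with Col1a1 and Dcn lacking any peak and Pdgfra reaching 20.1 in control-IP 4. Of 4 Schwann cell markers, 2, 2 and 1 had a peak in control-IPs 1, 2 and 4, and 2 in each miR-222-IP, whereas Sox10 had none.

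The sequences below are the guide strand of miR-222 (mature sequence from RefSeq, GRCm38.p6) and 6 places in member exons. These are all the places that match at least the first 6 bases of its seed, bases 2 to 8 of the miRNA. Matches to other runs of 6 seed bases were not searched. They are shown because the study looked for this seed under its peaks. The seed is in capitals in the miRNA, and its match is in capitals in each site, written on the strand of the gene with 11 bases on either side (genome GRCm38, mm10).

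mmu-miR-222-3p: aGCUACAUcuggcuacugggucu

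Chrng, 3'UTR, chr1:87212284-87212290, plus strand: ttccagcacccATGTAGCatctgttactc

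Agrn, coding exon, chr4:156169034-156169040, minus strand: gcgggcagtagATGTAGCgccttttgcag

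Chrnd, 3'UTR, chr1:87199609-87199614, plus strand: ctaggtcttagTGTAGCctgcaaagccc

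Dok7, 3'UTR of alternative transcripts, chr5:35079881-35079886, plus strand: gccaccagaccTGTAGCaagggcctcag

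Lrp4, coding exon, chr2:91511660-91511665, plus strand: agcagtctgagTGTAGCagtgttcacac

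Chrna1, 3'UTR, chr2:73564465-73564470, minus strand: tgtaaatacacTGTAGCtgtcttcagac

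The Chrng and Agrn sites match all 7 seed bases (ATGTAGC), and the other 4 match 6 bases (TGTAGC). The match is followed by an A in Chrng, Dok7 and Lrp4, opposite the first base of the miRNA, which is also an A.

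Peaks over the endplate genes were few in control-IPs and numerous in miR-222-IP 2. An exonic peak was present in 2 of the 10 genes in control-IP 1 (20.0%, against 21.4% of all protein-coding genes), in 2 in control-IP 2 (20.0% against 34.8%) and in 1 in control-IP 4 (10.0% against 29.8%). In miR-222-IP 1 the count was 4 of 10 (40.0% against 33.2%) and in miR-222-IP 2 it was 9 of 10 (90.0% against 44.7%). Of the 46 exonic peaks, 3, 3 and 2 were in control-IPs 1, 2 and 4, whereas miR-222-IP 1 held 7 and miR-222-IP 2 held 31. Without miR-222-IP 2, 5 genes with 8 intervals were left. The 9 genes with a peak in any library (46.9% of all protein-coding genes had such a peak) all had their highest score in miR-222-IP 2, as did 73.4% of all protein-coding genes with a peak. Taking the same number of peaks from each list, the 10579 with the highest scores, left 2 of the 10 genes in control-IP 1 (Chrna1, Lrp4, against 21.4% of all protein-coding genes). In control-IPs 2 and 4 it left 0, against 24.0% and 21% (4606 genes). In miR-222-IP 1 it left 2 (Chrna1, Lrp4, against 21.6%) and in miR-222-IP 2 it left 3 (Chrna1, Chrnd, Musk, against 24.3%).

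**Figure D1:**
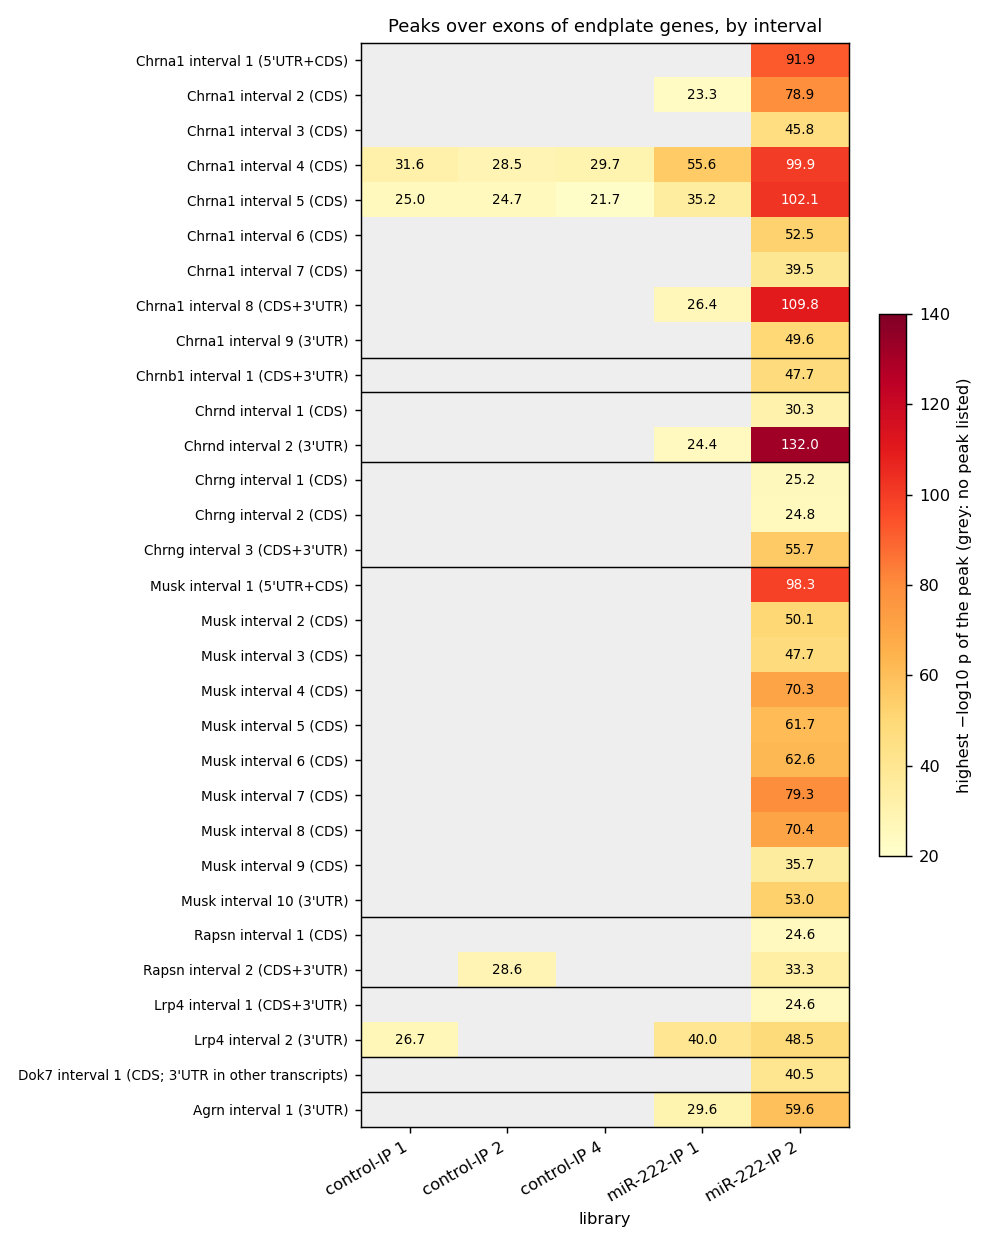
Score (−log10 p, colour) of the peak of each library over each of the 31 merged intervals in exons of the endplate genes. Rows are intervals named by gene and number, counted 5' to 3', columns are the 5 libraries, and grey cells have no peak. All 31 rows are filled for miR-222-IP 2 and 2 rows, both of Chrna1, are filled in every library.

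Chrna1, which encodes the alpha subunit that carries the acetylcholine binding site, was the single member with a peak in all 5 libraries, as were 40.4% of the genes with any peak. It lies on chromosome 2 (73563215 to 73580338, minus strand, ENSMUSG00000027107.3) and has 9 exons. Peaks covered 2 of these exons in each of control-IPs 1, 2 and 4, 4 in miR-222-IP 1 and all 9 in miR-222-IP 2. The interval over exon 5 (chr2:73571325-73571698) scored 31.6, 28.5 and 29.7 in control-IPs 1, 2 and 4, 55.6 in miR-222-IP 1 and 99.9 in miR-222-IP 2. Both miR-222-IPs were above every control-IP there, in scores not scaled for the library. The interval over exon 6 (chr2:73570334-73570730) scored 25.0, 24.7 and 21.7 in the control-IPs, 35.2 in miR-222-IP 1 and 102 in miR-222-IP 2, in the same order. How many of all intervals share this unscaled order was not counted, so it is not read as particular to Chrna1. The scale factors used below were 1.06 and 1.49 in miR-222-IPs 1 and 2, and 0.706, 0.972 and 0.989 in control-IPs 1, 2 and 4. Unscaled scores thus lean toward this order in general. After scaling, exon 6 lost this order, with 33.2 in miR-222-IP 1 and 35.4 in control-IP 1. Of each list, the share of peaks with a higher score than the exon 6 peak was 76.2% in control-IP 1, 79.2% in control-IP 2, 91.5% in control-IP 4, 51.6% in miR-222-IP 1 and 10.5% in miR-222-IP 2.

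The other 7 Chrna1 intervals had no peak in control-IPs 1, 2 and 4. The interval over exons 2 and 3 scored 23.3 in miR-222-IP 1 and 78.9 in miR-222-IP 2, and the one at the junction of the coding sequence and 3'UTR in exon 9 (chr2:73565776-73566370, 129 coding and 403 3'UTR bases) scored 26.4 and 110. The remaining 5 had a peak in miR-222-IP 2 alone, with 91.9 over exon 1, 45.8 over exon 4, 52.5 over exon 7, 39.5 over exon 8 and 49.6 in the 3'UTR. Thus peaks in miR-222-IP 2 lay along the whole Chrna1 transcript, and those of the control-IPs over exons 5 and 6.

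The miR-222-IP and control-IP scores were tested where each of the 5 libraries had a peak. With limma on log2 scores scaled by the median of ratios, with condition and experiment as terms, the Chrna1 exon 5 interval was higher in miR-222-IP by 0.80 ± 0.36 (log2, SE) with an adjusted p of 0.975, and the exon 6 interval by 0.79 ± 0.41 with an adjusted p of 0.975. These log2 ratios were larger than those of 97.8% and 97.7% of the 7935 intervals tested. Neither passed the threshold of 0.05, and limma called 0 of the 7935 intervals (0%), with 182 at an unadjusted p under 0.05. An exact permutation test within experiments, two-sided, gave 0.333 for exon 5 and 0.5 for exon 6, where the smallest p it allows is 0.167. After scaling, the exon 5 interval was at 44.8, 29.3 and 30.0 in control-IPs 1, 2 and 4, 52.5 in miR-222-IP 1 and 67.0 in miR-222-IP 2. Both miR-222-IPs remained above every control-IP, as they were in 10.9% of the tested intervals. The exon 6 interval was at 35.4, 25.5 and 21.9 in the control-IPs, 33.2 in miR-222-IP 1 and 68.5 in miR-222-IP 2, so that miR-222-IP 1 lay below control-IP 1. By experiment, the log2 ratio of exon 5 was 0.53 in experiment 1 and 1.16 in experiment 2, and that of exon 6 was 0.15 and 1.64. The exon 6 value rests on experiment 2: it was 0.14 without miR-222-IP 2 and 0.15 without control-IP 4.

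**Figure D2:**
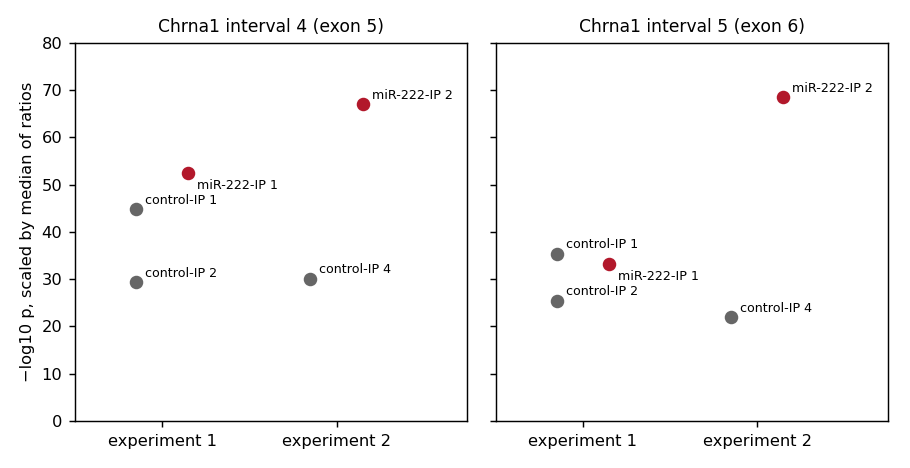
Scaled scores (−log10 p divided by the scale factor of the library, linear axis) of the Chrna1 intervals over exon 5 (interval 4) and exon 6 (interval 5), with 1 point for each library, by experiment. The miR-222-IP of experiment 2 is the highest point in both panels (67.0 and 68.5), and in interval 5 the miR-222-IP of experiment 1 (33.2) is below control-IP 1 (35.4).

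Among the other subunits, the delta subunit Chrnd (chromosome 1, 87190607 to 87200070, plus strand, ENSMUSG00000026251.13) had the highest score of the 10 genes in the narrow-peak lists. Its 3'UTR interval (chr1:87199025-87199808) lacked a peak in control-IPs 1, 2 and 4 and scored 24.4 in miR-222-IP 1 and 132 in miR-222-IP 2. Within its own list, 80.6% of the peaks of miR-222-IP 1 and 5.47% of those of miR-222-IP 2 had a higher score, in lists of unequal length. A weaker Chrnd interval over exons 4 to 6 scored 30.3 in miR-222-IP 2 alone. The 6-base match to the miR-222 seed printed above lies in the 3'UTR interval, 584 bp from its 5' end.

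The gamma subunit Chrng, next to Chrnd on chromosome 1 (87204657 to 87212694, plus strand, ENSMUSG00000026253.14), had 3 intervals, all in miR-222-IP 2 alone. They scored 25.2 over exons 3 and 4, 24.8 over exon 5 and 55.7 over exon 12 (chr1:87211421-87212391, 65 coding and 906 3'UTR bases). The last holds the 7-base seed match, 101 bp from its 3' end. In the RefSeq annotation of GRCm38.p6 the gene ends at 87211835, before that match, and its curated exons cover 415 bp of the interval, so the 3'UTR that carries the match is in the GENCODE model. The wide list of control-IP 3 has 1 peak of 63914 bp over both Chrnd and Chrng, with a score of 190, which cannot be assigned to either gene.

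The beta subunit Chrnb1 (chromosome 11, 69784036 to 69795943, minus strand, ENSMUSG00000041189.9) had 1 interval, over its last exon (chr11:69784112-69784699, 76 coding and 512 3'UTR bases), with 47.7 in miR-222-IP 2 alone. A peak of 72002 bp in control-IP 3 spans it and its neighbours, with a score of 114. The epsilon subunit Chrne (chromosome 11, 70614883 to 70619216, minus strand, ENSMUSG00000014609.16) had no peak in any of the 6 lists. It also has the shortest exons of the 10 genes, 1690 bp in all, against 1802 bp in Rapsn, which did have peaks, and 10504 bp in Lrp4. A missing peak says only that a score of 20 was not reached, not that the RNA was absent. Of the receptor subunits, then, the alpha subunit was listed in all 5 narrow-peak libraries, delta was listed in both miR-222-IPs, beta and gamma in miR-222-IP 2 alone, and epsilon in none. Control-IP 3 had wide peaks over the beta, delta and gamma subunit genes.

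Musk, the receptor kinase at the centre of the agrin pathway, showed the largest difference between libraries in number of peaks among the 10 genes. It lies on chromosome 4 (58285960 to 58374303, plus strand, ENSMUSG00000057280.15) and had 10 peaks in miR-222-IP 2 and none in control-IPs 1, 2 and 4 or miR-222-IP 1. The 10 peaks covered 10 of the 16 exons, from exon 1 to exon 16. Their scores ran from 35.7 over exon 13 to 98.3 over exon 1, with a median of 62.1. The interval over the last exon (chr4:58373807-58375656) scored 53.0 and ran 1353 bp past the GENCODE end of the gene, within an exon that RefSeq predicts for Musk. High-scoring peaks of miR-222-IP 2 were usually shared with another library. Of its 15923 exonic peaks within the score range of Musk, 14.3% had no peak in the 4 other libraries, and at scores of 60 or above this was 262 of 9605 (2.73%), 6 of them in Musk. The 10 peaks share a transcript and are not independent of each other. Expressed as whole genes, a peak in miR-222-IP 2 alone was found for Musk, Chrnb1, Chrng and Dok7, that is 4 of the 9 genes with a peak, against 14.1% of all genes with a peak.

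**Figure D3:**
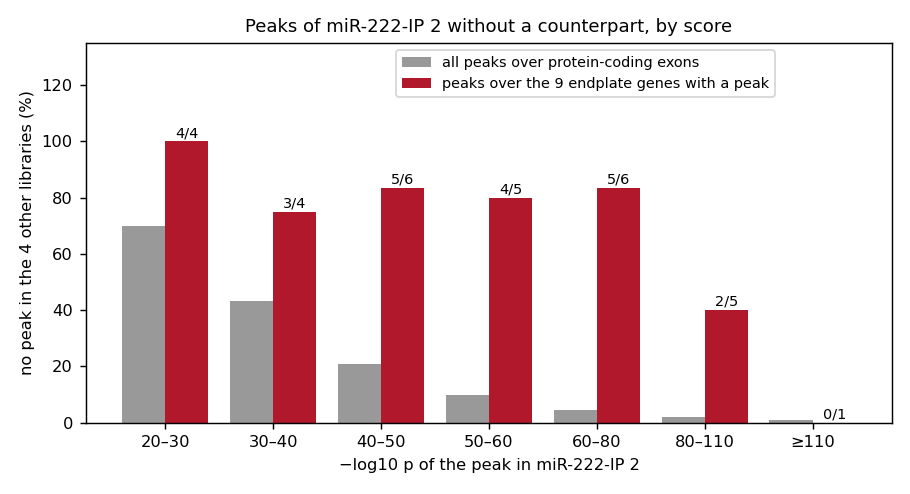
Share (percent) of the exonic peaks of miR-222-IP 2 that had no peak in the 4 other libraries, by class of score (−log10 p), for all protein-coding genes (grey bars) and for the endplate genes (red bars, with the number of peaks without a counterpart and the number in the class). The share over all genes falls from 70.1% at scores of 20 to 30 to 0.892% at 110 or above, whereas 5 of 6 member peaks at 60 to 80 and 2 of 5 at 80 to 110 were in miR-222-IP 2 alone, of which 5 and 1 were in Musk.

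Weak peaks of miR-222-IP 2 were seldom shared with other libraries, so the comparison was made by class of score. Among the member peaks of miR-222-IP 2, 4 of 4 at 20 to 30, 3 of 4 at 30 to 40, 5 of 6 at 40 to 50 and 4 of 5 at 50 to 60 had no peak elsewhere, against 70.1%, 43.2%, 20.9% and 9.74% of all exonic peaks. In the higher classes the counts were 5 of 6 at 60 to 80, 2 of 5 at 80 to 110 and 0 of 1 above, against 4.63%, 1.93% and 0.892%. Musk alone supplied all 5 unshared peaks at 60 to 80 and 1 of the 2 at 80 to 110, and 2 of the 4 at 50 to 60. Over all scores 23 of the 31 intervals (74.2%) were in miR-222-IP 2 alone, against 31.6% of intervals over protein-coding exons. Musk and Chrna1 supply 19 of the 31, and without them the count was 8 of 12 (66.7%).

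Among the partners of MuSK, the agrin co-receptor Lrp4 (chromosome 2, 91457511 to 91513779, plus strand, ENSMUSG00000027253.15) was detected in a control-IP. Its 3'UTR interval (chr2:91513080-91513797) scored 26.7 in control-IP 1, 40.0 in miR-222-IP 1 and 48.5 in miR-222-IP 2, and had no peak in control-IPs 2 and 4. In experiment 1, therefore, 1 of the 2 control-IPs listed it. A peak in control-IP 1 and both miR-222-IPs but in no other library was held by 0.632% of all genes with a peak. A second interval at the coding end of exon 38 scored 24.6 in miR-222-IP 2 alone. The ligand gene Agrn (chromosome 4, 156165290 to 156197488, minus strand, ENSMUSG00000041936.18), which muscle as well as motor neurons transcribe, had 1 interval in its 3'UTR (chr4:156165298-156166136). It scored 29.6 in miR-222-IP 1 and 59.6 in miR-222-IP 2. Agrn and Chrnd were the 2 genes of 9 with a peak in both miR-222-IPs and in none of control-IPs 1, 2 and 4, a pattern held by 3.14% of all genes with a peak. The wide peak of control-IP 3 over Chrnd leaves Agrn alone in this pattern when that list is counted, and that list does not reach chromosome 4.

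The adaptor gene Dok7 (chromosome 5, 35056766 to 35087839, plus strand, ENSMUSG00000044716.12) had 1 interval of 1224 bp (chr5:35079707-35080930) with 40.5 in miR-222-IP 2 alone. It covers 49 coding bases of the reference transcript and 1160 bases of the 3'UTR of other transcripts. Rapsn, whose product links receptors to the cytoskeleton (chromosome 2, 91035620 to 91045729, plus strand, ENSMUSG00000002104.11), was the member with a peak in a control-IP and none in miR-222-IP 1. Its last exon (chr2:91045354-91045760) scored 28.6 in control-IP 2 and 33.3 in miR-222-IP 2, and had no peak in miR-222-IP 1. Peaks in these 2 libraries alone were found for 7.03% of all genes with a peak. That exon is shared with the gene model Gm13778 on the other strand, and since no source used here says that strand was kept, reads of both cannot be told apart. Exon 7 of Rapsn scored 24.6 in miR-222-IP 2 alone.

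The 31 intervals were sorted by their exonic bases in the reference transcript of each gene, leaving out introns. By these bases 19 were in coding sequence only and 5 crossed from coding sequence into the 3'UTR. A further 5 were in the 3'UTR only, and 2 spanned 5'UTR and coding sequence. The Dok7 interval counts as coding here, though 1160 of its bases are 3'UTR of other transcripts. The same split over all intervals is not given here. The median width was 374 bp. Every one of the 46 peaks in the bodies of these genes touched an exon. The intervals with peaks in both miR-222-IPs but in no narrow control-IP list numbered 4 (2 of Chrna1, 1 each of Chrnd and Agrn), against 6.66% of all intervals over protein-coding exons. Of these 4, 3 contain 3'UTR, a share that was not counted over all intervals of this pattern. Only the Chrnd interval among the 4 holds a 6-base match to the miR-222 seed. Intervals with a peak in all 5 libraries numbered 2, against 18.5%, and those with a peak in control-IPs alone numbered 0, against 6.14%. By library, 3, 3 and 2 of the 31 intervals had a peak in control-IPs 1, 2 and 4, against 24.0%, 46.1% and 42.9% of intervals over protein-coding exons. In miR-222-IP 1 the count was 7 against 50.9%, and in miR-222-IP 2 it was 31 against 92.3%.

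A 7-base match to the miR-222 seed was in the exons of 2 of the 10 genes, against 19.1% of all protein-coding genes. A match to at least the first 6 seed bases was in those of 6, against 50.8%. Of the 2 matches of 7 bases, the Chrng match lay under a peak of miR-222-IP 2 (55.7), whereas the Agrn match was 2898 bp from the nearest interval and under no peak. Of the 6 matches to at least the first 6 seed bases, 4 were under a peak, and each of the 4 was under a peak of miR-222-IP 2: Chrnd (132), Chrng (55.7), Dok7 (40.5) and Lrp4 (24.6). Of these, Chrnd alone had a peak over the match in miR-222-IP 1 as well. In Chrna1 the match was in the 3'UTR, 302 bp from the nearest interval, and Musk, Chrnb1, Rapsn and Chrne had no such match in their exons. By interval, with introns inside it included and the strand of the gene read, 1 of 31 held the 7-base match, against 2.60% of intervals over protein-coding exons, and 5 held the 6-base match, against 11.1%. The seeds of other miRNAs of muscle cells were searched in the same way. The match to miR-206 (ACATTCC) was in 2 intervals, both of Musk, against 3.47%, that to miR-133 (GGACCAA) in 0 against 3.16%, and that to let-7 (CTACCTC) in 3 against 3.69%. These intervals were found in Chrna1, Rapsn and Lrp4.

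Other genes of the endplate, 52 in a list of those known to act there or to resemble members, were counted in the same way. Of the 52, 34 had an exonic peak and 17 had a peak in all 5 libraries, against 9 and 1 of the 10 members. Of all 21951 protein-coding genes, 46.9% had an exonic peak and 4160 had one in all 5 libraries. By library, 18, 24 and 19 of the 52 had a peak in control-IPs 1, 2 and 4, against 21.4%, 34.8% and 29.8% of all protein-coding genes. The counts were 24 in miR-222-IP 1 and 31 in miR-222-IP 2, against 33.2% and 44.7%. Over the 17, the median of the highest score per gene was 65.2, 102 and 92.4 in control-IPs 1, 2 and 4, 113 in miR-222-IP 1 and 143 in miR-222-IP 2. Of the 17, 12 had their highest score in miR-222-IP 2, against 71.5% of all genes with a peak in every library. Of the groups in this list, genes that signal downstream of agrin and MuSK were listed most completely. All 16 of 16 had a peak in miR-222-IP 2, against 44.7% of all protein-coding genes, and 10 of 16 in all 5 libraries, against 4160 of 21951. The adaptor Crk, which binds phosphorylated DOK7, scored at most 38.7, 45.5 and 33.0 in control-IPs 1, 2 and 4, 80.1 in miR-222-IP 1 and 109 in miR-222-IP 2. The small GTPase Rac1 was nearly level, at 115, 122 and 121 in the control-IPs, 117 in miR-222-IP 1 and 152 in miR-222-IP 2, and Ctnnb1, which encodes beta-catenin, was highest in control-IP 1 (207) and lowest in control-IP 2 (71.1).

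**Figure D4:**
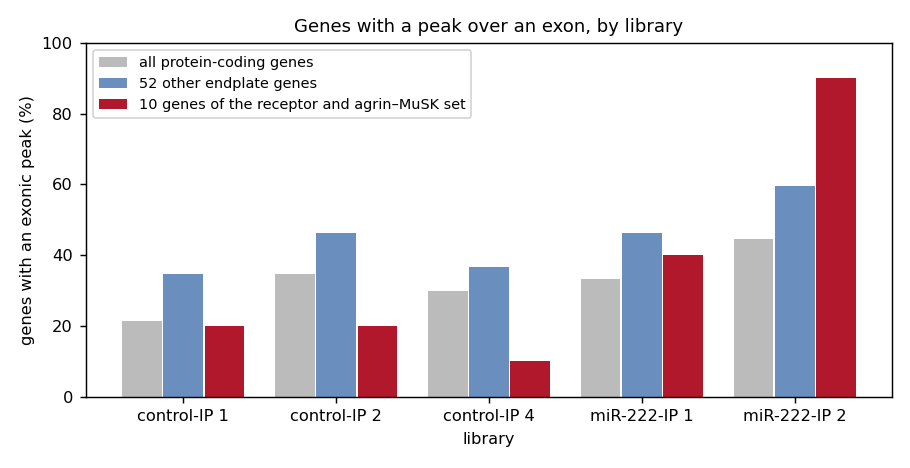
Percent of genes with at least 1 exonic peak in each of the 5 libraries, for the 10 endplate genes, the 52 other genes of the endplate and all 21951 protein-coding genes. The 10 genes run from 10.0% in control-IP 4 to 90.0% in miR-222-IP 2, a wider span than the 21.4% to 44.7% of all genes.

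The dystroglycan gene Dag1 of the basal lamina group scored at most 60.5, 58.1 and 44.3 in control-IPs 1, 2 and 4, 61.1 in miR-222-IP 1 and 151 in miR-222-IP 2. Utrn, which encodes the scaffold protein utrophin and holds a 7-base seed match in 1 of its 31 intervals, had 39.9 in control-IP 2, 33.2 in miR-222-IP 1 and 102 in miR-222-IP 2. Seed matches of 7 bases also lay in 1 interval each of Pak1, Cttn, Nid2 and Macf1. Of these, Cttn had a peak in miR-222-IP 2 alone (40.2), and Pak1 was highest in control-IP 2 (217). By group, 4 of 6 neuregulin pathway genes, 4 of 8 basal lamina genes, 8 of 9 scaffold genes and 1 of 2 genes of the sodium channel group had a peak in any of the 5 libraries. The share over all protein-coding genes was 46.9%. Acetylcholinesterase (Ache) and its collagen tail (Colq) had no peak, and of 11 neuronal receptor subunits 1 did, Chrnb2 with 28.8 in control-IP 2.

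Muscle markers had their highest scores in the same library as the endplate genes. This held for 8 of 8 markers, against the 73.4% of all genes with a peak given above. The highest scores of the 8 muscle markers summed to 281, 243 and 242 in control-IPs 1, 2 and 4, 360 in miR-222-IP 1 and 1187 in miR-222-IP 2. Myog, which activates receptor subunit genes during differentiation, had a peak in miR-222-IP 2 alone (75.7), as Musk did. Myod1 scored 27.4, 22.3 and 26.8 in the control-IPs, 29.2 in miR-222-IP 1 and 174 in miR-222-IP 2. Ckm, the muscle creatine kinase, was listed in control-IP 2 (28.3), miR-222-IP 1 (24.6) and miR-222-IP 2 (200). After scaling, the 8 muscle marker intervals with a peak in all 5 libraries had log2 ratios of −0.08 to 0.92, with a median of 0.34, and none passed the limma test, the smallest adjusted p being 0.975. Of these 8 intervals 6 were above 0, and both intervals of Myh3 were below it. The part of differentiation or depth in the values of the endplate genes was not tested. Neuronal markers did not follow this order, with sums of 66.8, 41.3 and 35.7 in control-IPs 1, 2 and 4, 112 in miR-222-IP 1 and 48.2 in miR-222-IP 2. The Schwann cell list summed to 61.5, 247 and 46.0 in the control-IPs, 120 in miR-222-IP 1 and 92.9 in miR-222-IP 2. The endothelial list summed to 26.1, 106 and 28.8 in the control-IPs, 29.8 in miR-222-IP 1 and 58.0 in miR-222-IP 2. Of its 3 genes, 1, 2 and 1 had a peak in control-IPs 1, 2 and 4, and 1 in each miR-222-IP, whereas Kdr had none.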

How the data were processed

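SOAPSplice was used by the authors for alignment to mm10 and macs2, at its default settings, for peak calling in single libraries. The deposited score is a −log10 p, and their lists start at 20. The macs2 version, its control track and the depth of each library are not given in the sources used here. Control-IP 3 was kept apart for its wide peaks.

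Peaks that overlapped or touched were merged, and a library's value was its highest score over an interval. Exons came from GENCODE M21 and sequences from GRCm38 and RefSeq, read in Python 3.11.15 with pysam 0.24.0. Intervals with a peak in all 5 libraries were tested with limma 3.58.1 in R 4.3.3 on log2 of scores scaled by the median of ratios, with condition and experiment as terms and Benjamini-Hochberg adjustment. Log2 ratios are thus ratios of −log10 p, not of RNA. The script was tested on simulated data. Members, gene lists, markers and tests were chosen with earlier results of these data known. All 10 members are named, and other genes by list, with values, singly or as a median, for those with a peak in all 5 libraries or a seed match. Alternatives varied the threshold, merging, exon overlap, scaling, number of peaks and libraries. 1 gene of the marker lists is not named here.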

Additional observations from a re-analysis of the deposited data

How the results depend on the processing

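The counts rest on miR-222-IP 2, the longest list. Without it, 5 members and 8 intervals had a peak, 2 members had a peak in miR-222-IP 1 and in no control-IP, and 0 seed matches of 7 bases were under a peak. Leaving out each library in turn gave 5 to 9 members with a peak, 8 to 31 intervals, 23 to 27 intervals in miR-222-IP 2 alone, 0 to 1 seed matches under a peak, and 2 to 6 members with a peak in the miR-222-IPs and in no control-IP, with 6 without miR-222-IP 1. At a threshold of 50 members with a peak numbered 0, 0 and 0 in control-IPs 1, 2 and 4, 1 in miR-222-IP 1, 5 in miR-222-IP 2 and 5 in any library, with 17 intervals and 1 member (Chrna1) in both miR-222-IPs alone. With equal numbers of peaks there were 0 members in control-IPs 2 and 4, 2 in miR-222-IP 1, 3 in miR-222-IP 2 and 4 in any library, 13 intervals, 10 of them in miR-222-IP 2 alone, 0 members in both miR-222-IPs alone and 0 seed matches under a peak. Requiring 50% of a peak in exons left 21 intervals, 13 of them in miR-222-IP 2 alone. Adding control-IP 3 left 1 member in both miR-222-IPs alone. A 6-base match gave 6 sites in exons, 4 under a peak.

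The limma fit called 0 intervals under every alternative run, with 56 to 1342 intervals at an unadjusted p under 0.05 by setting. The adjusted p of the 2 Chrna1 intervals ran from 0.308 to 1 over these alternatives. With no replicate block, that is without experiment as a term, the log2 ratios of Chrna1 were 0.80 over exon 5 and 0.82 over exon 6 (adjusted p of 0.837 for exon 6). The labels give no replicate numbers that would pair libraries within an experiment. With no scaling the ratios were 1.26 and 1.24 (limma adjusted p 0.317 and 0.319), where the median of all intervals was 0.47. Leaving out each library in turn gave 0.53 to 1.15 and 0.14 to 1.63. With missing peaks set to the lowest score, the Chrnd 3'UTR interval was at 0.88 and the Rapsn last exon at −0.29, with limma adjusted p of 0.999 for both. All control-IP values of that Chrnd interval were filled in this way, so its ratio does not compare measured scores. For Rapsn only control-IP 2 and miR-222-IP 2 had a listed score. No conclusion is drawn from either ratio. With control-IP 3 added the Chrna1 intervals could not be fitted, because its list lacks chromosome 2.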

Other observations

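Among all protein-coding genes with a peak, 1435 had every exonic interval in miR-222-IP 2 alone, with a median of 1 interval per gene. Musk, with 10, was among the 7 such genes with at least 10 intervals, out of 772 protein-coding genes with that many intervals in any library. The others were Sec24d with 14, Ldb3 with 13, Lmo7, Mybpc1 and Myom2 with 11 each, and Myom1 with 10. These names were chosen after their values were seen. Ldb3, Mybpc1, Myom1 and Myom2 encode proteins of the sarcomere.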
